A study of Homo sapiens with 12 samples.

Results

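The vesicle miRNAs of MDST8 were compared with those of RCM-1. Both are established colorectal carcinoma cell lines, and the comparison rests on 4 of the 12 libraries of the series, 2 per line. The pair was chosen on measured values: in earlier work on these libraries the miR-200 family and the miRNAs of the intestinal epithelium were low in MDST8 and high in RCM-1, and miRNAs of inflammation and of the epithelial-mesenchymal transition were high in MDST8. Every difference below is therefore a description of these 4 libraries. No measure of them is independent of the choice, and a threshold is used only to sort miRNAs.

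The series profiles small RNA from extracellular vesicles of 6 lines, the pair beside Car-1, HT55, Hutu80 and SW1116. MDST8 and RCM-1 carry no labelled genetic change or treatment, and all lines were grown in DMEM/F12 with fetal bovine serum, penicillin and streptomycin. Vesicles were taken from conditioned medium by ultrafiltration and then size-exclusion chromatography, and libraries were made with IsoSeek, a low-input small RNA method that tags molecules with unique identifiers. The design text speaks of 3 lines of consensus molecular subtype CMS2 and 3 of CMS4, but no label used here ties MDST8 or RCM-1 to either. The labels do not state separate cultures for the libraries of a line, so the errors given measure only the spread between libraries of a line. That spread was estimated with all 12 libraries of the 6 lines, not from the 4 libraries of the pair alone. Serum itself contains vesicles, and whether it was cleared of them is not given in the sources used here.

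miRNAs are short RNAs that guide a silencing complex to messenger RNAs, mostly through bases 2 to 8 of the miRNA, called the seed. The miR-200 family holds back ZEB1 and ZEB2, repressors of E-cadherin, and is used as a marker of epithelial cells. Its loss accompanies the epithelial-mesenchymal transition (EMT), in which cells give up cell-cell contacts. In the gut, miR-192, miR-194 and miR-215 are abundant in epithelium, and miR-375 is enriched in secretory cells.

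The sequences of the miRNAs on which the comparison turns are given 5′ to 3′ from RefSeq (GRCh38.p14), with the seed in capitals. The first set was lower in MDST8, and it shows that the miR-200 family carries 2 seeds that differ at 1 base, while miR-192 and miR-215 share one.
miR-200c-3p: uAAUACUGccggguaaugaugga
miR-200b-3p: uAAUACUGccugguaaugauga
miR-429: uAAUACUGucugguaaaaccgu
miR-200a-3p: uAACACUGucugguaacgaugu
miR-141-3p: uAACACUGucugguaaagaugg
miR-192-5p: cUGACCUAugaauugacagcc
miR-215-5p: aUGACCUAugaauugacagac
miR-194-5p: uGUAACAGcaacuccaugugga
miR-375-3p: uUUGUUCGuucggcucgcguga
miR-203a-3p: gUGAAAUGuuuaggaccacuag
miR-224-5p: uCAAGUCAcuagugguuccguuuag
miR-92a-3p: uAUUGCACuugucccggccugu

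The second set was higher in MDST8 and holds miRNAs that were abundant there.
miR-21-5p: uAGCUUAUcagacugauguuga
miR-146a-5p: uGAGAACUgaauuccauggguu
miR-221-3p: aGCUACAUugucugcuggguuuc
miR-222-3p: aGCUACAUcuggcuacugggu
miR-100-5p: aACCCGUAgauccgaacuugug
miR-99a-5p: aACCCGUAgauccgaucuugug
miR-125b-5p: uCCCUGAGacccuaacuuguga
miR-30a-5p: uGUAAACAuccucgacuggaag
miR-181a-5p: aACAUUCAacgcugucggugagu
miR-34a-5p: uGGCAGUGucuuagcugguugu
miR-455-3p: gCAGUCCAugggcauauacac

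The third set shows families in which members with the same seed differed in opposite directions.
let-7a-5p: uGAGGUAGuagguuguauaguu
let-7b-5p: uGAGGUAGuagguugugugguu
let-7e-5p: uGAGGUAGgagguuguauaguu
let-7i-5p: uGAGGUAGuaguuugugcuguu
miR-148a-3p: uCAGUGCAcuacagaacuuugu
miR-148b-3p: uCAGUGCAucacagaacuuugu
miR-152-3p: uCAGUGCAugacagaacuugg

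In total the MDST8 libraries held 339853 and 306811 miRNA counts, and the RCM-1 libraries 172320 and 372549. Of 1636 miRNAs in the count table, 318 passed the filter on low counts, and they held 99.7% of the 1191533 counts of the pair. A miRNA is said to be called where edgeR's quasi-likelihood test gave a Benjamini-Hochberg adjusted p below 0.05. By that measure 69 of the 318 (21.7%) were higher in MDST8 and 65 (20.4%) were lower, 42.1% in either direction. Since this contrast served to choose the pair, nothing is read from these shares. They are the background for every count of called miRNAs in a list below. Of the called miRNAs, 41 of those higher and 39 of those lower differed by more than 4-fold (a log2 difference of 2). The median log2 difference over all tested miRNAs was -0.04, and its median size was 1.26. In all 134 called miRNAs the libraries of the lines did not overlap, and this was so for 215 of the 318 tested (67.6%).

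The called miRNAs held most of the miRNA counts. The 69 miRNAs higher in MDST8 made up 60.9% and 61.3% of the counts of its libraries and 17.4% and 13.97% of those of RCM-1. The 65 lower miRNAs made up 15.6% and 14.9% in MDST8 and 58.5% and 62.6% in RCM-1. Since the calls were made on these libraries, the direction of both gaps was fixed by how the miRNAs were picked. Over the miRNAs, the Spearman correlation was 0.952 between the MDST8 libraries, 0.944 between the RCM-1 libraries and 0.779 between the line means, given as a description. Among the 15 pairs of lines, this pair had the 4th largest median difference, 1.04 on the log2 scale against a range of 0.525 to 1.14.

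**Figure D1:**
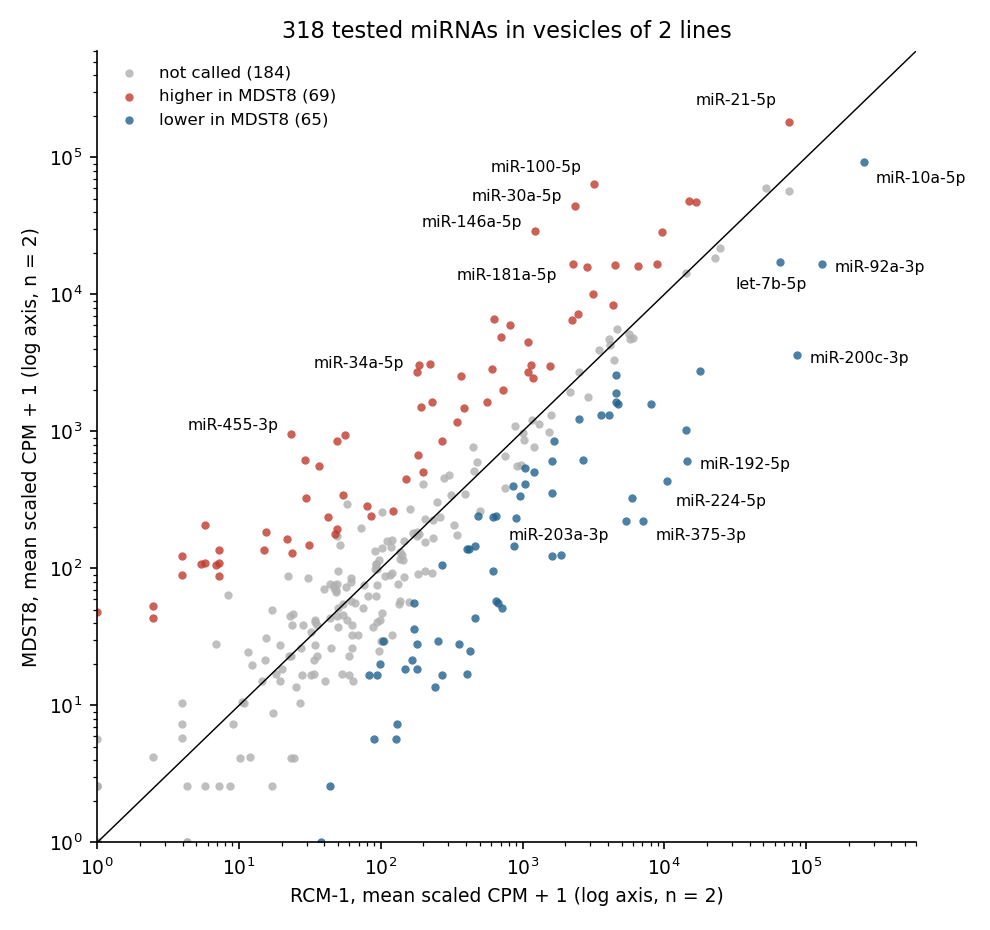
Mean scaled CPM + 1 (counts scaled to a common library size after TMM normalisation) of the 318 tested miRNAs in RCM-1 (horizontal) and MDST8 (vertical), both on log axes, n = 2 libraries per line, with the line of equal level drawn. The 69 miRNAs higher in MDST8 and the 65 lower lie on both sides over the whole range of abundance, with miR-10a-5p and miR-21-5p at the top.

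The label of the pair, mesenchymal-like against epithelial, was read against the epithelial marker family first. All 7 tested members of the miR-200 family, of 9 listed, were lower in MDST8, beside 20.4% of all tested miRNAs. Their median log2 difference was -3.81, beside -0.04 over all tested miRNAs. This family was used to choose the pair, so its values are a description. Levels below are scaled CPM, the library order is 1 then 2, and a log2 difference is MDST8 minus RCM-1 with its standard error (SE).

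miR-200c-3p, the most abundant member, stood at 4153 and 3056 CPM in MDST8 and at 68502 and 104092 in RCM-1, a log2 difference of -4.58 ± 0.36. miR-200b-3p stood at 1200 and 842 CPM in MDST8 against 11014 and 17522 (-3.81 ± 0.32). miR-200a-3p stood at 133 and 110 CPM against 1817 and 1410 (-3.72 ± 0.40). In each of the 3 the lines were separated with a wide gap between them. miR-141-3p was rarer, with 7 and 3 counts in MDST8 against 76 and 108 in RCM-1 (-4.64 ± 0.66), as was miR-429 with 2 and 6 counts against 44 and 66 (-4.19 ± 0.62). Leaving out MDST8 replicate 1 moved the difference of miR-141-3p to -5.31 and that of miR-429 to -3.59, and leaving out MDST8 replicate 2 moved that of miR-429 to -5.09. The family was not absent from MDST8 vesicles: its members summed to 0.520% and 0.424% of counts there, against 7.36% and 11.3% in RCM-1.

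The members come from a locus pair on different chromosomes. MIR200C and MIR141 lie at chr12:6963699-6964191 (plus strand), within the host transcript MIR200CHG. MIR200B and MIR429 lie at chr1:1167104-1169087 (plus strand). Both loci gave the same direction, and the passenger strand miR-200b-5p did too, at 76.2 and 34.6 CPM against 693 and 639 (-3.57 ± 0.50, and -4.21 without MDST8 replicate 1).

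The miRNAs of the intestinal epithelium, also used to choose the pair, were lower in MDST8 in all 5 tested members of 8 listed (median -4.19). Over all tested miRNAs the share lower was 20.4%. miR-375-3p had the largest difference in the direction of RCM-1 among the miRNAs named by size, at 254 and 185 CPM against 6125 and 8022 (-5.01 ± 0.35). miR-192-5p stood at 721 and 503 CPM against 15622 and 13264 (-4.56 ± 0.33), and miR-194-5p at 340 and 314 against 5373 and 6538 (-4.19 ± 0.32). miR-215-5p had 3 and 7 counts in MDST8 against 39 and 97 (-4.06 ± 0.74, and -4.73 without MDST8 replicate 2). It shares the seed of miR-192-5p, from which it differs at C1A and C20A (the base of miR-192-5p, the position from the 5′ end, the base of miR-215-5p). MIR192 and MIR194-2 lie together at chr11:64891137-64891439 (minus strand), and MIR215 and MIR194-1 at chr1:220117853-220118241 (minus strand). The mature miR-194-5p can come from either locus, so its counts cannot be assigned to one. MIR375 lies alone at chr2:219001645-219001708, with no host gene on its strand.

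Other miRNAs with large differences in the same direction belong to no single pathway. miR-203a-3p, which is known for limiting the renewal of squamous epithelium, stood at 270 and 173 CPM in MDST8 against 5615 and 5142 in RCM-1 (-4.60 ± 0.35). Its relative miR-203b-3p had 1 and 2 counts against 10 and 38, a pooled ratio of 19.0 in RCM-1 over MDST8 with a 95% counting interval of 6.12 to 95.3. By contrast miR-205-5p, the other epidermal miRNA tested, stood at 50.8 and 31.4 CPM against 65.4 and 47.3, so the libraries overlapped (-0.40 ± 0.53, not called). miR-205-5p was low in both lines, while its mean was 4109 CPM in Car-1.

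miR-224-5p stood at 527 and 339 CPM against 9962 and 10905 (-4.59 ± 0.34). miR-452-5p, its neighbour within GABRE, where both hairpins overlap an annotated exon (chrX:151958578-151959712, minus strand), had 0 and 3 counts against 14 and 55, a ratio of 27.3 with a counting interval of 8.96 to 136. Both members of this locus were thus lower in MDST8. miR-95-3p had 12 and 3 counts against 51 and 174 (-4.14 ± 0.61), moving to -5.39 without MDST8 replicate 1 and to -3.45 without MDST8 replicate 2. miR-1247-3p had 4 and 0 counts against 25 and 32 (-4.21 ± 0.93), and -3.23 without MDST8 replicate 2.

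**Figure D2:**
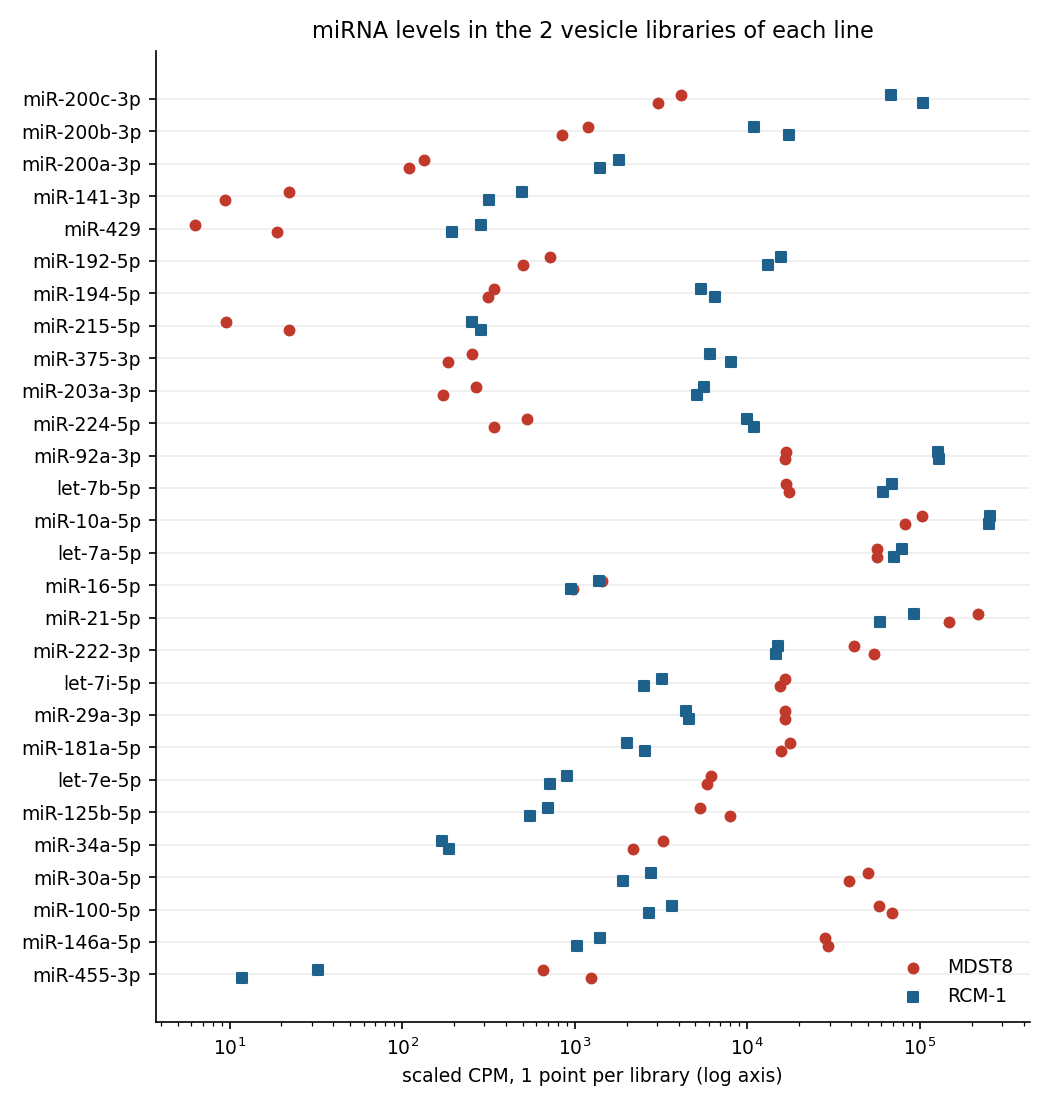
Scaled CPM (log axis) of 28 miRNAs in each library, circles for the 2 MDST8 libraries and squares for the 2 RCM-1 libraries. The miR-200, intestinal, miR-203a and miR-224 rows have RCM-1 far to the right, miR-16-5p overlaps, and the rows from miR-21-5p down have MDST8 to the right.

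The largest share of counts that RCM-1 held over MDST8 lay in 6 miRNAs that are abundant in both lines or in RCM-1. miR-10a-5p, encoded within the HOXB cluster, was the most abundant miRNA of the RCM-1 vesicles, with 22.7% and 23.0% of counts against 9.59% and 8.52% in MDST8 (-1.45 ± 0.27). miR-92a-3p, a product of the MYC-driven miR-17-92 cluster, took 11.3% and 11.8% of counts in RCM-1 and 1.55% and 1.72% in MDST8. It is encoded in this cluster and again in a paralogous cluster on chromosome X, and its counts cannot be assigned to one. Its scaled levels were 127716 and 129993 CPM against 16738 and 16537 (-2.95 ± 0.30). miR-320a-3p stood at 2314 and 3210 CPM in MDST8 against 17420 and 18181 (-2.69 ± 0.36). let-7b-5p, miR-200c-3p and miR-192-5p complete this set.

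Every other member of the miR-17-92 list had a smaller difference than miR-92a-3p, and most were not called. Of 17 tested members of this cluster and its paralogues, edgeR called 5 lower in MDST8, 0 higher and 12 in neither direction (median -0.71). Of all 318 tested miRNAs, 20.4% were lower and 21.7% higher, and nothing is read from the list's count of calls. At an unadjusted p below 0.05 the counts were 7 lower and 1 higher, and DESeq2 and limma-trend each called 3 lower and 1 higher. The count of lower members was 2 without either MDST8 replicate and 3 without RCM-1 replicate 1. Members of MIR17HG (chr13:91350605-91351391, plus strand) other than miR-92a-3p were named after their values were seen. miR-17-5p stood at 619 and 503 CPM in MDST8 against 837 and 999 (-0.71 ± 0.34, not called). miR-20a-5p stood at 949 and 744 CPM against 2066 and 1292 (-0.98 ± 0.33), a call that was lost without either MDST8 replicate or without RCM-1 replicate 1. Both are several-fold less apart than miR-92a-3p. Other products of this locus lay nearer to it. miR-92a-1-5p, the other strand of MIR92A1 and not on the list, stood at 133 and 56.5 CPM against 654 and 580 (-2.69 ± 0.43). miR-18a-3p differed by -2.34 ± 0.82, on 4 and 8 counts in MDST8. At MIR17HG 4 of 8 tested miRNAs were called lower. miR-25-3p, which has the seed of miR-92a-3p and is encoded within MCM7 (cluster at chr7:100093560-100094074, minus strand), stood at 19033 and 17882 CPM against 18779 and 27067, overlapping between the lines (-0.31 ± 0.27). miR-92b-3p, another miRNA with this seed, stood at 1279 and 1363 CPM against 4327 and 3776 (-1.62 ± 0.31). The seed of miR-25, miR-92a, miR-92b and miR-363 as a whole took 3.47% and 3.73% of counts in MDST8 and 13.4% and 14.6% in RCM-1, most of that gap being miR-92a-3p.

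The miRNAs of inflammation and EMT, the third list used in the choice, were abundant in MDST8 vesicles. Of the 11 tested, 9 were higher in MDST8 and 2 were not called (median 2.13), where 21.7% of all tested miRNAs were higher. The list summed to 30.3% and 28.0% of counts against 11.2% and 8.23%. miR-21-5p, a well-known oncogenic miRNA, was the most abundant miRNA of MDST8 vesicles at 20.1% and 15.3% of counts, against 8.22% and 5.34% in RCM-1 (1.27 ± 0.32). miR-146a-5p, which dampens NF-kappaB signalling through IRAK1 and TRAF6, stood at 28392 and 29299 CPM against 1405 and 1035 (4.57 ± 0.35). miR-221-3p stood at 27881 and 29114 CPM against 9197 and 10035 (1.57 ± 0.26), and miR-222-3p at 41447 and 54522 against 15171 and 14678 (1.68 ± 0.29). These last are repressors of the cell cycle inhibitor p27, encoded together at chrX:45746157-45747124 (minus strand).

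The list was not uniform. miR-155-5p, an immune cell miRNA also made by tumour cells, stood at 5746 and 3688 CPM in MDST8 against 6517 and 4855 (-0.27 ± 0.33). miR-146b-5p, which shares the seed of miR-146a-5p, stood at 1013 and 719 CPM against 1281 and 772 (-0.24 ± 0.36). In both the libraries of the lines overlapped, so of the 2 tested miRNAs with this seed only miR-146a-5p, from an exon of MIR3142HG at chr5:160485352-160485450 (plus strand), stood apart between the lines. These 2, and miR-31-5p below, were named after their values were seen. miR-31-5p stood at 1699 and 1586 CPM against 229 and 231 (2.83 ± 0.40). Its other strand miR-31-3p had 72 and 58 counts against 1 and 1, a ratio of 54.8 with a counting interval of 14.9 to 457. MIR31 lies in an intron of MIR31HG at chr9:21512115-21512185 (minus strand).

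The clusters that join miR-99 or miR-100, a let-7 and a miR-125 were higher in MDST8 in 9 of 10 tested members of 16 listed. The other 1 was not called, and over all tested miRNAs the share higher was 21.7%. The list had a median of 2.94 and summed to 7.58% and 10.1% of counts against 1.02% and 0.866%. miR-100-5p, which targets MTOR, stood at 58138 and 68738 CPM against 3674 and 2685 (4.32 ± 0.32). miR-125b-5p stood at 5337 and 7903 CPM against 699 and 550 (3.41 ± 0.37), and let-7e-5p at 6153 and 5830 against 909 and 719 (2.89 ± 0.33). The 3 paralogous loci were not alike in every member, and let-7c-5p was the only tested member of the list not called. At MIR99B, MIRLET7E and MIR125A (chr19:51692612-51693339, plus strand, within SPACA6) all 4 tested miRNAs were higher in MDST8, by 2.81 to 3.71. At MIR99A and MIRLET7C (chr21:16539089-16539911, plus strand, within MIR99AHG) the neighbours differed. There, miR-99a-5p, named after its values were seen, stood at 4194 and 4793 CPM against 882 and 1298 (2.04 ± 0.50, not called without RCM-1 replicate 1), while let-7c-5p stood at 4238 and 4281 against 4582 and 3726 (0.04 ± 0.32). Near MIR100, on chr11:122146522-122152308 (minus strand, MIR100HG), lies MIRLET7A2, but let-7a-5p has other loci too and cannot be assigned to it. miR-100-5p and miR-99a-5p differ only at A16U, so a base read wrongly at that position would turn one into the other.

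The miR-30 family, known for opposing mesenchymal genes in several tissues, had a median of 1.32, also with miR-30d-3p at its bound. Of its 9 tested members, 7 were higher in MDST8 and 2 were not called, beside 21.7% higher among all tested miRNAs. Without MDST8 replicate 1 or RCM-1 replicate 2 the count was 5. miR-30a-5p stood at 49959 and 39099 CPM against 2752 and 1919 (4.26 ± 0.39), and its other strand miR-30a-3p at 5534 and 4287 against 850 and 559 (2.81 ± 0.31). miR-30c-5p stood at 3143 and 2902 CPM against 1784 and 1354 (0.95 ± 0.32), a call lost without MDST8 replicate 1 or RCM-1 replicate 2. miR-30d-5p, an abundant member, stood at 21478 and 22025 CPM against 22466 and 27002 (-0.19 ± 0.26, not called). Most of the family's gap was therefore miR-30a, from an intron of LINC00472 at chr6:71403551-71403621 (minus strand). The miR-30 and miR-200 families, both described as opposing mesenchymal genes, thus differed in opposite directions between these lines.

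All 5 tested members of the miR-181 family were higher in MDST8 (median 2.87), 4 without MDST8 replicate 1 or without RCM-1 replicate 1. Over all tested miRNAs the share higher in the fit to all libraries was 21.7%. miR-181a-5p stood at 17811 and 15639 CPM against 2020 and 2549 (2.87 ± 0.29), and miR-181b-5p at 6315 and 6712 against 1883 and 2561 (1.55 ± 0.29). The passenger strands miR-181a-2-3p and miR-181a-3p, which come from different hairpins, differed by 4.01 ± 0.45 and 3.92 ± 0.54. Leaving out RCM-1 replicate 2 moved that of miR-181a-2-3p to 4.61. MIR181A1 and MIR181B1 lie at chr1:198858873-198859153 (minus strand, MIR181A1HG).

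miR-34a-5p, a target of p53, stood at 3251 and 2174 CPM in MDST8 against 170 and 186 (3.92 ± 0.48), from an exon of MIR34AHG at chr1:9151668-9151777 (minus strand). Its relative miR-34c-5p had 21 and 6 counts against 0 and 1, a ratio of 22.7 with an interval of 3.75 to 931, and its call was lost in 6 of the alternative settings. miR-455-3p, from an intron of the collagen gene COL27A1 (chr9:114209434-114209529, plus strand), had 206 and 397 counts against 5 and 4. Its difference of 5.57 ± 0.62 ran from 4.88 to 6.28 on leaving out either RCM-1 library. miR-708-5p stood at 492 and 751 CPM against 32.7 and 23.7 (4.49 ± 0.66), which rest on 5 and 8 counts in RCM-1. miR-1269b stood at 721 and 971 CPM against 52.3 and 44.4 (4.14 ± 0.54), from 8 and 15 counts in RCM-1. A further 5 miRNAs named by the size of their difference had 2 or 3 counts in RCM-1: the pooled ratio of MDST8 over RCM-1 was 32.4 for miR-3609 (counting interval 8.68 to 273), 29.1 for miR-138-5p (7.75 to 245), 23.9 for miR-130a-3p (7.90 to 118), 19.4 for miR-137-3p (6.36 to 96.3) and 19.1 for miR-296-3p (6.26 to 94.9).

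miR-29a-3p, which represses collagen genes and is read as anti-fibrotic, stood at 16455 and 16572 CPM in MDST8 against 4438 and 4601 (1.87 ± 0.31). Of the other 3 tested miRNAs of its family, none was called in the fit to all libraries, and miR-29b-3p stood at 543 and 364 CPM against 379 and 177, overlapping (0.73 ± 0.47). Without MDST8 replicate 1 or RCM-1 replicate 1, 2 members of the family were called. miR-182-5p, of the sensory cluster of miR-183, miR-96 and miR-182, stood at 51105 and 43811 CPM against 18387 and 15180 (1.50 ± 0.29). Of the same cluster, miR-96-5p stood at 82.5 and 31.4 CPM against 98.0 and 23.7, overlapping and not called. miR-183-5p stood at 17858 and 15338 CPM against 9432 and 8347 (0.90 ± 0.28). The call of miR-183-5p was lost without MDST8 replicate 1 or RCM-1 replicate 2. At the cluster on chromosome 19 (chr19:13836287-13836659, minus strand), miR-23a-3p, miR-24-3p and miR-27a-3p differed by 0.95 ± 0.26, 1.46 ± 0.33 and 1.53 ± 0.37. The other of the 4 tested there, miR-23a-5p, differed by -1.02 ± 0.95 and was not called. With the paralogous cluster, 3 of 8 tested members were higher and 5 were not called (median 0.05), beside 21.7% higher among all tested miRNAs. miR-23b-3p, of the paralogous cluster on chromosome 9, stood at 1194 and 1065 CPM against 1262 and 1336 (-0.20 ± 0.30). miR-24-3p is encoded in both clusters. The call of miR-23a-3p was lost without MDST8 replicate 2.

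**Figure D3:**
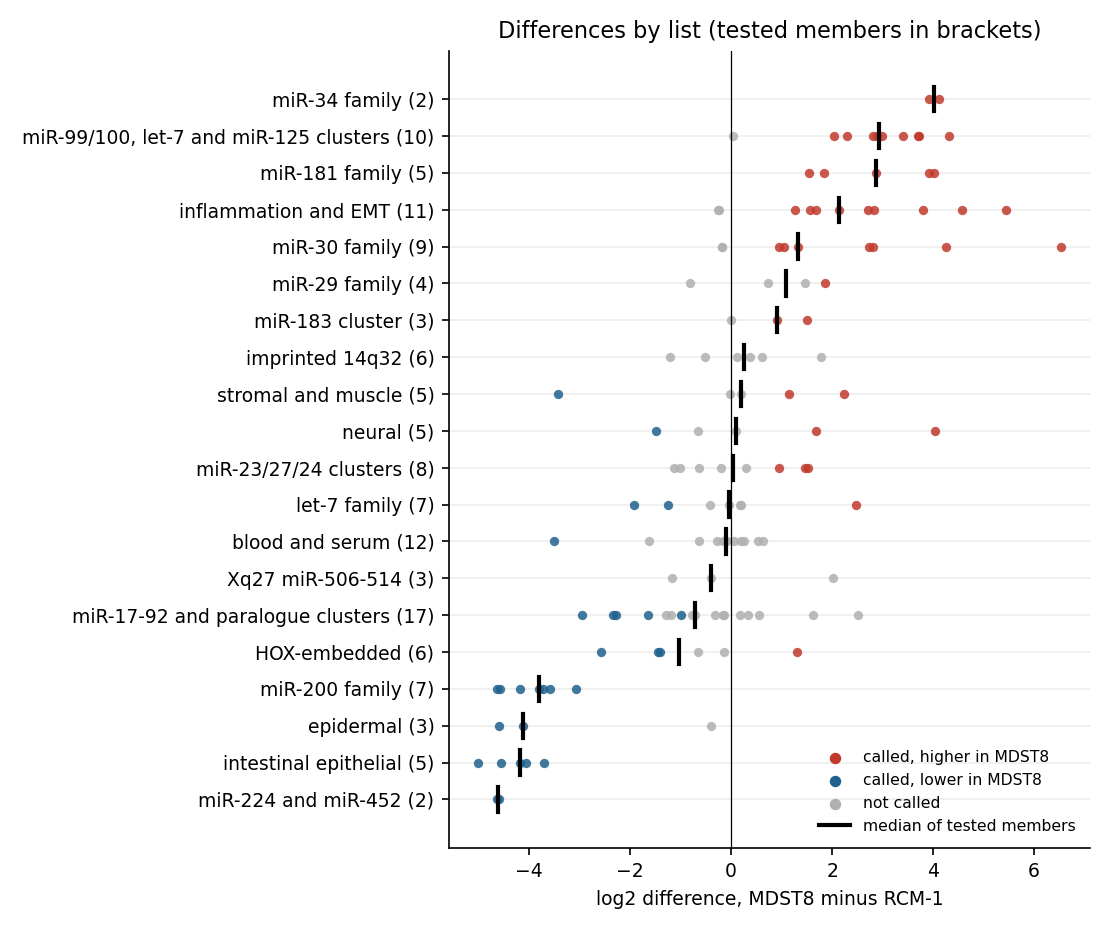
Log2 difference (MDST8 minus RCM-1) of the tested members of the 20 lists, 1 point per miRNA, with the number tested in brackets and the median as a bar. The miR-200, epidermal, intestinal and miR-224 lists lie at the negative end, the miR-34, miR-100, miR-181 and inflammation lists at the positive end, and the point of miR-30d-3p at the far right has 0 counts in RCM-1, so its fitted value depends on the prior count.

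The HOX-embedded miRNAs split within the list. Among 6 tested members of 10 listed, 1 was higher in MDST8, 3 were lower and 2 were not called. Over all 318 tested miRNAs 21.7% were higher and 20.4% lower. The other strand of miR-10a-5p, miR-10a-3p, differed by -0.14 ± 0.42 and was not called. miR-10a-5p, which lies in the HOXB cluster, was lower in MDST8, and miR-10b-5p, from the HOXD cluster, was higher at 17658 and 14295 CPM against 7053 and 5949 (1.30 ± 0.27). miR-196b-5p stood at 156 and 135 CPM against 922 and 813 (-2.57 ± 0.39), and miR-196a-5p at 622 and 597 against 1876 and 1354 (-1.40 ± 0.38, not called without RCM-1 replicate 1). Neural miRNAs split as well, with 2 of 5 tested members higher, 1 lower and 2 not called. miR-9-5p stood at 981 and 732 CPM against 346 and 195 (1.69 ± 0.38), while its other strand miR-9-3p differed by 0.09 ± 0.63, not called. miR-7-5p stood at 1810 and 1457 CPM against 5556 and 3637 (-1.49 ± 0.29).

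The label was also read against stromal and muscle miRNAs, which mark fibroblasts and smooth muscle. Of 5 tested members of 16 listed, 2 were higher, 1 was lower and 2 were not called (median 0.20). Of all 318 tested miRNAs, 21.7% were higher and 20.4% lower. The 2 not called were miR-199a-3p and miR-199b-3p, which share a seed. Whether their counts are separate observations was not tested. The median is the value of miR-199a-3p. miR-218-5p stood at 3502 and 2196 CPM in MDST8 against 680 and 529 (2.24 ± 0.38). miR-143-3p stood at 264 and 261 CPM against 150 and 91.7 (1.15 ± 0.46), and its call was lost without either MDST8 replicate and without RCM-1 replicate 2. miR-1-3p, the muscle miRNA, went the other way at 50.8 and 34.6 CPM against 503 and 426 (-3.42 ± 0.56). miR-199a-3p, abundant in fibroblasts, stood at 41.3 and 34.6 CPM against 45.8 and 23.7, overlapping (0.20 ± 0.85). The word mesenchymal-like thus rests here on low epithelial and high inflammation and EMT miRNAs, the values that chose the pair. The inflammation and EMT list was also high in SW1116, as given below. The 5 tested stromal entries did not shift together, and they are too few to speak for that list. Messenger RNA markers of either state were not analysed here.

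Serum can carry vesicles of its own, and whether any reached these libraries was not tested. The listed miRNAs of blood cells and plasma summed to 0.378% and 0.316% of counts in MDST8 and 0.453% and 0.336% in RCM-1. Of 12 tested members, 1 was called, beside 42.1% of all 318 tested miRNAs, and 11 were not. miR-486-5p of red cells stood at 1486 and 1159 CPM against 1948 and 1251 (-0.27 ± 0.31), miR-16-5p at 1448 and 983 against 1386 and 958 (0.06 ± 0.36), and miR-223-3p of myeloid cells at 406 and 286 against 464 and 319 (-0.17 ± 0.42). In all 3 the libraries overlapped. The 1 called was miR-150-5p of lymphocytes, at 73.0 and 40.8 CPM against 569 and 733 (-3.51 ± 0.52). The 6 tested miRNAs of the imprinted 14q32 cluster and the 3 of the Xq27 cluster gave 0 calls in this pair with edgeR, DESeq2, limma-voom and limma-trend, and 0 at an unadjusted p below 0.05 in edgeR.

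The tested miRNAs were also grouped by shared seed. A sequence was found for 286 of the 318 tested miRNAs, and 35 seeds had at least 2 tested members. In 2 of the 35 there were calls in both directions. The first was the let-7 seed, with 2 of 9 tested members higher in MDST8 and 2 lower. Its members summed to 16.4% and 16.1% of counts in MDST8 and 20.2% and 17.3% in RCM-1, close to each other although single members lay far apart. let-7b-5p stood at 16884 and 17401 CPM against 68966 and 61304 (-1.93 ± 0.32), and let-7i-5p at 16462 and 15388 against 3229 and 2513 (2.47 ± 0.28). They differ at U12G, C18U and U19G (let-7i-5p first), outside the seed. let-7a-5p, at 56264 and 56862 CPM against 79399 and 70999 (-0.41 ± 0.31), and let-7f-5p, at 70361 and 49147 against 60770 and 43164 (0.20 ± 0.29), were not called. let-7 miRNAs repress LIN28, HMGA2 and RAS genes through this shared seed.

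The second was the seed of miR-148 and miR-152, which target the DNA methyltransferase DNMT1, and these 3 were named after their values were seen. miR-148a-3p stood at 1889 and 1304 CPM in MDST8 against 9118 and 6949 (-2.33 ± 0.32). miR-152-3p stood at 3099 and 2975 CPM against 196 and 174 (4.04 ± 0.38), and miR-148b-3p at 3200 and 2902 against 1229 and 1047 (1.43 ± 0.31). The seed as a whole took 0.759% and 0.745% of counts in MDST8 and 0.936% and 0.742% in RCM-1, ranges that overlap. miR-148a-3p was the main member in RCM-1, and miR-148b-3p and miR-152-3p together outweighed it in MDST8. They come from separate loci, MIR148A at chr7:25949919-25949986 (minus strand) and MIR152 in an intron of COPZ2 at chr17:48037161-48037247 (minus strand).

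Other seeds differed in 1 direction. The seed of miR-200b, miR-200c and miR-429 took 0.497% and 0.406% of counts in MDST8 against 7.09% and 11.1%. The seed of miR-99 and miR-100 took 5.95% and 7.96% against 0.443% and 0.388%, and the seed of miR-221 and miR-222 6.43% and 8.68% against 2.16% and 2.24%. The seed of miR-30a, miR-30c and miR-30e took 5.18% and 4.58% against 0.519% and 0.394%, without miR-30b and miR-30d, for which no sequence was matched. The miR-181 seed took 2.26% and 2.33% against 0.348% and 0.472%.

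**Figure D4:**
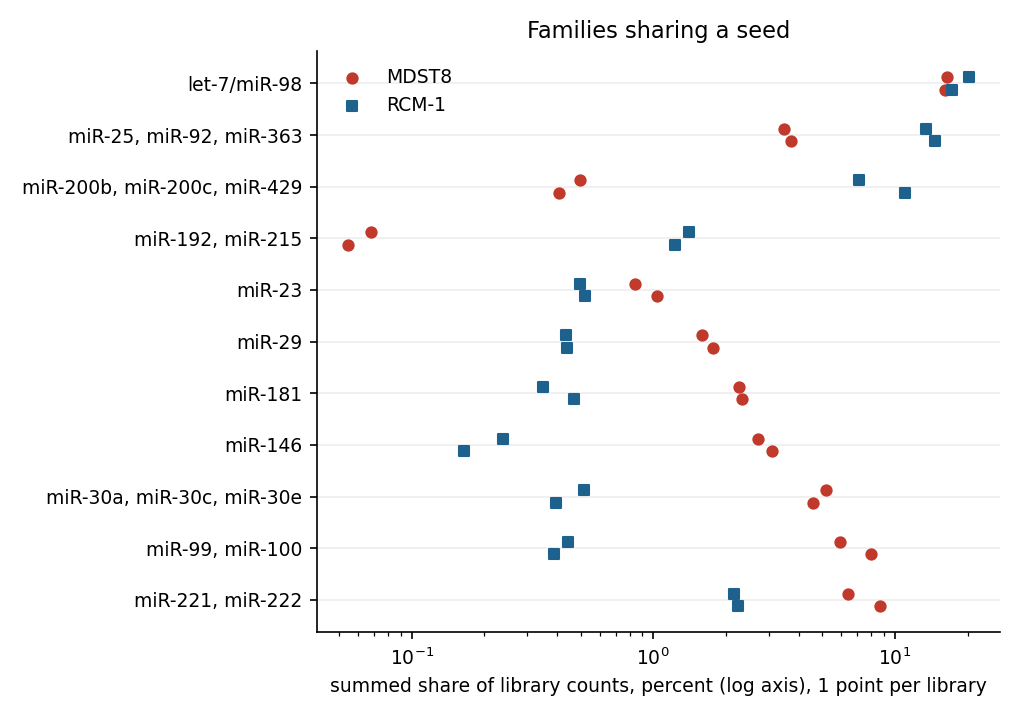
Summed share of library counts (percent, log axis) of miRNAs that share a seed, 1 point per library, circles for MDST8 and squares for RCM-1. The let-7 row has the lines close together, the rows of miR-25 and miR-92, of the miR-200 seed and of miR-192 have RCM-1 higher, and the other rows have MDST8 higher.

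Genomic neighbours were called together in some groups and not in others. Among 31 groups of tested miRNAs with hairpins within 10 kb on 1 strand, 4 had every tested member higher in MDST8, 6 had every member lower, 14 had some members called and others not, and 7 had no call. In 0 groups were there calls in both directions, but in 15 the members' differences, called or not, had both signs. The groups with every member higher were those of miR-30e with miR-30c, miR-221 with miR-222, miR-181b with miR-181a on chromosome 1, and miR-99b with let-7e and miR-125a. Some mature miRNAs are encoded at more than 1 locus and count in each. Only miRNAs with a matched locus could be grouped, so miR-200a, miR-183, miR-93, miR-30b and miR-30d are in none of the groups.

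Strands of the same hairpin gave a second view. Both strands were tested for 58 hairpins, and the differences had the same sign in 43 of them (Pearson 0.72 and Spearman 0.70 across hairpins, a description, since strands share the libraries). These figures include miR-149, whose 3p strand had 0 counts in all 4 libraries of the pair. They also include miR-365a and miR-365b, whose 3p strands have the same counts in each library. In 15 hairpins both strands were called, 9 higher and 6 lower, and no hairpin had strands called in opposite directions. The strands did not always differ by the same amount. The 5p strand made up 9.84% and 9.69% of miR-221 counts in MDST8 but 2.56% and 1.99% in RCM-1, and miR-221-5p stood at 3045 and 3122 CPM against 242 and 204 (3.80 ± 0.36). For miR-30a the 5p strand made up 90.0% and 90.1% in MDST8 and 76.4% and 77.4% in RCM-1. miR-574-5p stood at 384 and 320 CPM against 2026 and 1212 (-2.19 ± 0.34), while miR-574-3p stood at 178 and 135 against 163 and 127 (0.12 ± 0.55). The 5p share of miR-574 was 68.4% and 70.3% in MDST8 and 92.5% and 90.5% in RCM-1. miR-221-5p and the strands of miR-574 were named after their values were seen. In miR-30d only the 3p strand was called: miR-30d-3p had 21 and 9 counts in MDST8 and 0 in both RCM-1 libraries, at least 8.43-fold higher in MDST8 against a floor of 3 counts over both libraries.

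**Figure D5:**
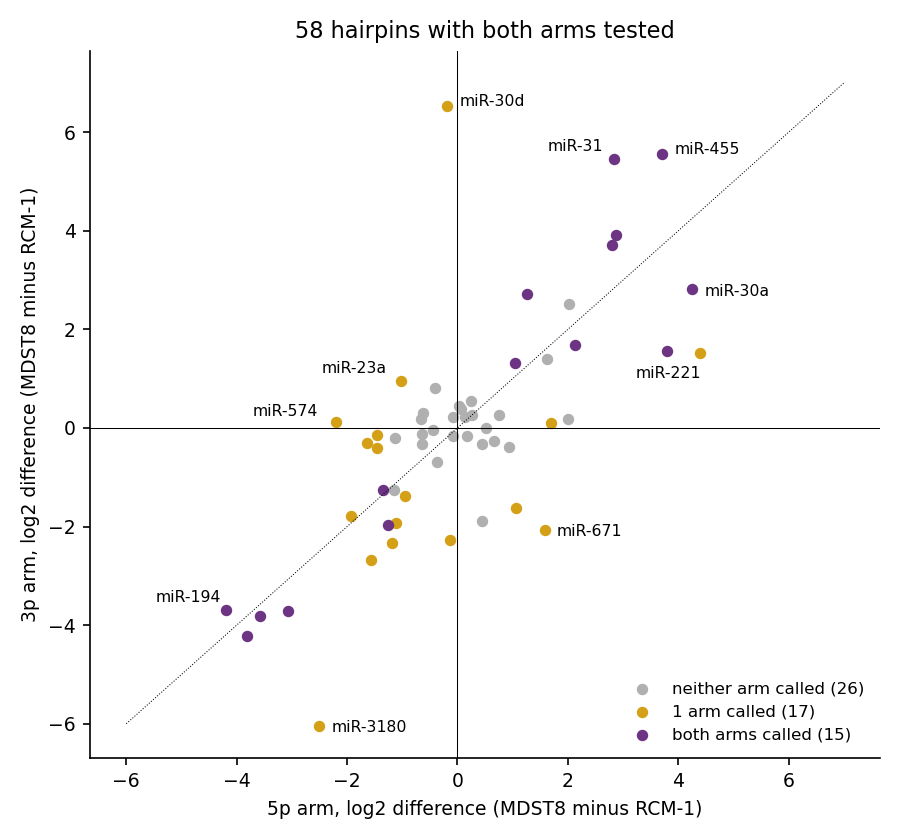
Log2 difference (MDST8 minus RCM-1) of the 5p strand (horizontal) and the 3p strand (vertical) of 58 hairpins, coloured by how many strands were called, with the line of equal difference dotted. Both strands were called in 15 hairpins, all in the lower left or upper right, and miR-30d and miR-3180, at the top and bottom, each have a 3p strand with 0 counts in 1 line, so that their fitted values depend on the prior count.

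Some miRNAs had counts in one line only. In RCM-1, 144 miRNAs with counts in MDST8 were at 0, of which 91 had at most 3 counts in MDST8. In MDST8, 201 with counts in RCM-1 were at 0, of which 162 had at most 3. Apart from miR-30d-3p, the highest on the MDST8 side were miR-22-5p and miR-548h-5p with 25 counts each, at least 7.02-fold higher, and miR-3144-3p with 23 counts, at least 6.46-fold. On the RCM-1 side they were miR-196a-1-3p with 22 counts, at least 8.70-fold lower in MDST8, and miR-10399-3p with 20 (at least 7.91-fold). Next came miR-335-5p with 18 (at least 7.12-fold) and miR-3180-3p with 14 (at least 5.54-fold). The RCM-1 libraries held 1 and 19 counts of miR-10399-3p and 1 and 17 of miR-335-5p. Both of these bounds thus rest mostly on RCM-1 replicate 2. The call of miR-3180-3p was lost without either MDST8 replicate or RCM-1 replicate 1. At this depth 0 counts do not show absence.

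The other 4 lines place the pair. MDST8 had the highest mean of the 6 lines for 44 of the 69 miRNAs higher in it and the lowest for 44 of the 65 lower ones. RCM-1 had the lowest for 34 of the 69 and the highest for 27 of the 65. Only 20 of the 69 and 17 of the 65 had this pair at both ends. These miRNAs were picked for a difference between MDST8 and RCM-1, which by itself favours those lines at the ends. The same counts over all tested miRNAs were not made. For the 65 lower miRNAs, Hutu80 was nearer MDST8 in 47 and Car-1 in 43, while HT55 was nearer MDST8 in 18 and SW1116 in 14. For the 69 higher miRNAs these counts were 32, 27, 12 and 20, so no other line was nearer MDST8 in most of them. For example, miR-200c-3p had a mean of 7295 CPM in Hutu80 and 20149 in Car-1 against 92305 in HT55 and 80348 in SW1116, whereas the means of miR-146a-5p in these 4 lines ran from 1193 to 2501 CPM, closer to RCM-1 than to MDST8. The inflammation and EMT list was not high in MDST8 alone. In SW1116 it summed to 230231 and 257315 CPM, against 326484 and 269834 in MDST8 and 126651 and 90706 in RCM-1. The mean of miR-222-3p was 69558 CPM in SW1116 and 47984 in MDST8. Since lines share the fit and the pair was chosen from them, the counts of ends and of nearer lines were not tested.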

How the data were processed

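Small RNA libraries from vesicles of 6 lines were deposited as a table of whole-number counts per mature miRNA, not normalised, and as a table of log2 values. Tested on the files, the deposited log2 values equal log2(CPM + 1) of the counts. Per the submitters' processing notes the build was hg38. Not given in the sources used here are the aligner, the miRNA annotation, the counter and any collapsing of molecular identifiers, so counts may not be independent molecules, and the intervals and floors cover counting error only. The groups are the lines named in the labels. A single count was worth 2.94 and 3.26 CPM in the MDST8 libraries and 5.80 and 2.68 in those of RCM-1.

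The pair, its miRNAs and the lists were chosen with earlier results of these data known. Counts of all 12 libraries were fitted at once with edgeR 4.0.16 in R 4.3.3 (filterByExpr by line, TMM scaling, glmQLFit with robust estimation, glmQLFTest), with 1 mean per line and no block, and Benjamini-Hochberg adjustment over all 318 miRNAs with a threshold of 0.05. The common biological coefficient of variation was 0.304. SEs are the absolute log2 difference over the square root of F. Scaled CPM refers to counts at a common library size after TMM normalisation, and shares are percent of unscaled counts. Where a line had 1 to 3 counts over its libraries, the ratio of unscaled pooled CPM is given with its exact 95% counting interval (scipy 1.17.1). Where it had 0, the floor was 3 counts over both libraries.

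miRNAs were named by rule: per direction, up to 12 called miRNAs with the largest difference, a mean of at least 100 scaled CPM in the higher line and no overlap, up to 6 with the largest gain in share of counts, up to 4 at 0 in 1 line, up to 4 of the most abundant per list (at least 10 CPM), and up to 5 hairpins with the widest gap between strands. Not every miRNA the rule allows is described. Any other miRNA was named after its values were seen. Loci and sequences come from RefSeq (GRCh38.p14) and host genes from GENCODE release 29.

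Same-numbered libraries of MDST8 and RCM-1 deviated from their line means with a correlation of 0.148, but nothing in the labels pairs them. Alternatives were RLE size factors, library totals, no filter, a filter of 10 CPM in 2 libraries, DESeq2 1.42.0, limma-voom and limma-trend (limma 3.58.1), a fit to the 4 libraries alone, a replicate block, removal of the 10 most abundant miRNAs, and removal of each library in turn. On data simulated for this contrast with 307 miRNAs, 20 changes each of 2-fold, 4-fold and 8-fold were simulated, of which 4, 10 and 19 were recovered. False calls numbered 3 among 249 unchanged miRNAs.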

Additional observations from a re-analysis of the deposited data

How the results depend on the processing

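Over the 14 alternative settings, 59 to 73 miRNAs were called higher in MDST8 and 52 to 68 lower, against 69 and 65, and 106 to 134 of the 134 calls were shared with the setting used in the text. Leaving out each library in turn gave 59 to 70 higher and 52 to 58 lower, with the spread of the lone library taken from the other lines. RLE size factors moved the median of all tested miRNAs from -0.04 to 0.08 and library totals to 0.07. With the replicate block, 72 were higher and 68 lower, all 134 calls remained. The block stands for a shared number only, since the labels pair no libraries.

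Of the 75 called miRNAs named in the text, 65 kept their call in every setting in which they were tested, and the other 10 lost it in 30 of the values computed. Values that changed sign belong to 10 miRNAs that were not called. Fitted to the 4 libraries alone, let-7c-5p gave -0.052 and miR-16-5p -0.038. On leaving out each library, the difference ran from -0.063 to 0.22 for let-7c-5p, from -0.039 to 0.50 for let-7f-5p, from -0.52 to 0.19 for miR-146b-5p, from -0.58 to 0.045 for miR-155-5p, from -0.21 to 0.37 for miR-16-5p, from -0.23 to 0.69 for miR-199a-3p, from -0.40 to 0.14 for miR-223-3p, from -0.53 to 0.018 for miR-25-3p, from -0.52 to 0.11 for miR-486-5p and from -0.053 to 0.33 for miR-574-3p. No other miRNA counted here changed sign, and the cause was not tested. These counts leave out miR-96-5p, miR-23a-5p, miR-10a-3p and miR-9-3p, which were not called and whose values over the settings are not given.

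Depth limits the rare miRNAs: a miRNA with 0 counts over both libraries of a line is only bounded by the floor of 3 counts.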

Other observations

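A further locus and the base composition were looked at after the values were seen. MIR421 and MIR374B lie together within FTX, the long RNA that helps regulate XIST, at chrX:74218377-74218618 (minus strand). miR-421 stood at 19.0 and 37.7 CPM in MDST8 against 150 and 352 in RCM-1 (log2 difference -3.15 ± 0.59, and -2.34 without RCM-1 replicate 2). miR-374b-5p stood at 1225 and 1244 CPM against 2510 and 2475 (-1.01 ± 0.31), and its call was lost without either MDST8 replicate or RCM-1 replicate 1. Both were thus lower in MDST8, the abundant one by less. let-7d-5p, from chromosome 9, stood at 1810 and 2029 CPM against 4870 and 4279 (-1.25 ± 0.33), a further let-7 member in the direction of let-7b-5p.

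Among miRNAs with a sequence, the median G and C content was 47.8% for 60 miRNAs higher in MDST8, 45.5% for 59 lower and 50.0% for 167 not called, and the median length was 22 bases in each set. The ranges from the lower to the upper quartile overlapped, running from 43.1% to 52.9%, from 40.9% to 56.8% and from 41.3% to 59.5%.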
